A study of Rattus norvegicus with 9 samples.

Results

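The PDGF-NS columns of a rat smooth muscle expression table were set against its control columns, LH-NS, gene by gene. The members were the 3 PDGF-NS and 3 LH-NS libraries out of 9 in all, and every gene that reached 1 FPKM on average in the 9 libraries, which left 11376 of 26405 genes. Just inside that limit were Myo7a and Casc5, at a mean of 1.0015 and 1.00196 FPKM, and just outside it Cacnb4, at 0.998982 FPKM. FPKM is the number of fragments per kilobase of transcript and a fixed library size, so levels of different genes can be compared. S31 cells are wild-type primary vascular smooth muscle cells grown out of small heart vessels. The donors were male rats of the Wistar Kyoto strain. All cells were kept without serum for 48 h. The LH-NS libraries then had fresh serum-free medium with no growth factor and were harvested after 24 h. The sources give the treated libraries 2 names. The PDGF-NS columns belong to sample records that name recombinant human IGF-1 at 25 ng/ml, harvested after 24 h, while the column name says PDGF. A further set, the IGF-NS columns, belongs to records that name recombinant rat PDGF-BB at 25 ng/ml, harvested after 48 h. Nothing was reassigned, and column names are used for the sets. Whether the 3 libraries of a set stand for 3 separate cultures is not said, so a p-value here measures only the spread between these libraries, which may be technical.

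Vascular smooth muscle cells can leave a contractile state, in which they hold a dense array of actin, myosin and calcium-handling proteins, for states in which they divide, migrate, remodel matrix or take on traits of bone, cartilage, fibroblasts or macrophages. Contractile genes are driven by serum response factor, which binds CArG boxes together with its coactivator myocardin. PDGF-BB binds receptor tyrosine kinases that signal strongly through ERK and is the classical repressor of this programme, whereas IGF-1 signals mainly through PI3K and AKT. The 57 gene lists below cover contraction, receptors, signalling, matrix, adhesion, cell cycle, metabolism, stress and inflammation.

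FPKM summed to between 616899 and 748191 per library and the number of genes at 1 FPKM or more lay between 11047 and 11348. Read depth is unknown, since the table holds no counts. The smallest steps between low values put the depth, relative to LH-NS library 1, at 0.67 and 0.78 in LH-NS libraries 2 and 3 and at 0.96, 1.4 and 1.27 in PDGF-NS, so 2 controls were shallower than every PDGF-NS library. Across genes, libraries of LH-NS correlated with each other at r of 0.9588 to 0.9789, those of PDGF-NS at 0.9736 to 0.9826, and libraries of different sets at 0.9009 to 0.9317. The cell type was checked on its markers. The smooth muscle markers, 12 in all, summed to between 5384 and 6844 FPKM in LH-NS and between 1275 and 1477 FPKM in PDGF-NS, and 10 of the 11 tested fell. Cdh5, Kdr, Cldn5 and Emcn (endothelium), Ptprc, Aif1, Cd163, Mrc1 and Tyrobp (leukocytes) and Myh6, Myh7 and Myl2 (heart muscle) were listed at 0 in all 6 libraries, and a listed 0 can also be a failed estimate. The endothelial markers were not all at 0 and summed to 7.59 to 9.19 FPKM in LH-NS and 3.90 to 6.45 FPKM in PDGF-NS. Most of that came from Erg, at a mean of 7.98 and 4.85 FPKM, which did not pass. Heart muscle markers summed to 10.6 to 22.4 FPKM in LH-NS and 1.35 to 4.55 FPKM in PDGF-NS, nearly all from Tnnt2, which fell. Pericyte markers summed to 169 to 229 FPKM and 167 to 195 FPKM, but moved apart: of the 4 tested, Notch3 and Mcam fell (Mcam from 60.6 to 9.33 FPKM), ABCC9 rose and Kcnj8 did not pass, and Rgs5 and Higd1b were listed at 0. Mesothelial markers summed to 80.4 to 281 FPKM in LH-NS and 73.8 to 151 FPKM in PDGF-NS. Most of that came from Upk3b, at a mean of 188 and 106 FPKM, and neither of the 2 tested passed. Epithelial markers summed to 9.28 to 12.3 FPKM and 13.99 to 14.99 FPKM, mostly from Krt8, which did not pass. The part of such cells in the libraries was not tested. In bulk RNA, fewer cells of a type and less RNA per cell cannot be told apart.

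In all, 2355 genes rose and 1166 fell in PDGF-NS against LH-NS. That is 20.7% and 10.2% of the genes tested, the background against which the lists below are read. A log2 fold change of at least 1 in size was found in 783 of those that rose and 459 of those that fell. The log2 scale is that of FPKM + 1 throughout and understates changes of low genes. A gene that passed the filter through PDGF-NS alone could be called only higher, and through LH-NS alone only lower. Such genes are part of the counts. A signed value in parentheses after the levels of a gene is its log2 fold change, and ± beside one is its standard error. The median over all genes was 0.13. Scaling the libraries by median ratios brought it to 0.01 and gave 1754 higher and 1685 lower genes, or 51.0% of calls higher in place of 66.9%, so the balance of rises and falls depended on the scaling. Rescaling to one common sum gave 50.3% higher and quantile normalization 49.1%. Without PDGF-NS library 3 the number that rose was 1535. For each list the median as deposited is followed by the one after median ratio scaling. Counts of a list after that scaling are read against 1754 higher and 1685 lower of 11376 genes, not against 20.7% and 10.2%. The plot of list shares shows where the calls lay.

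**Figure D1:**
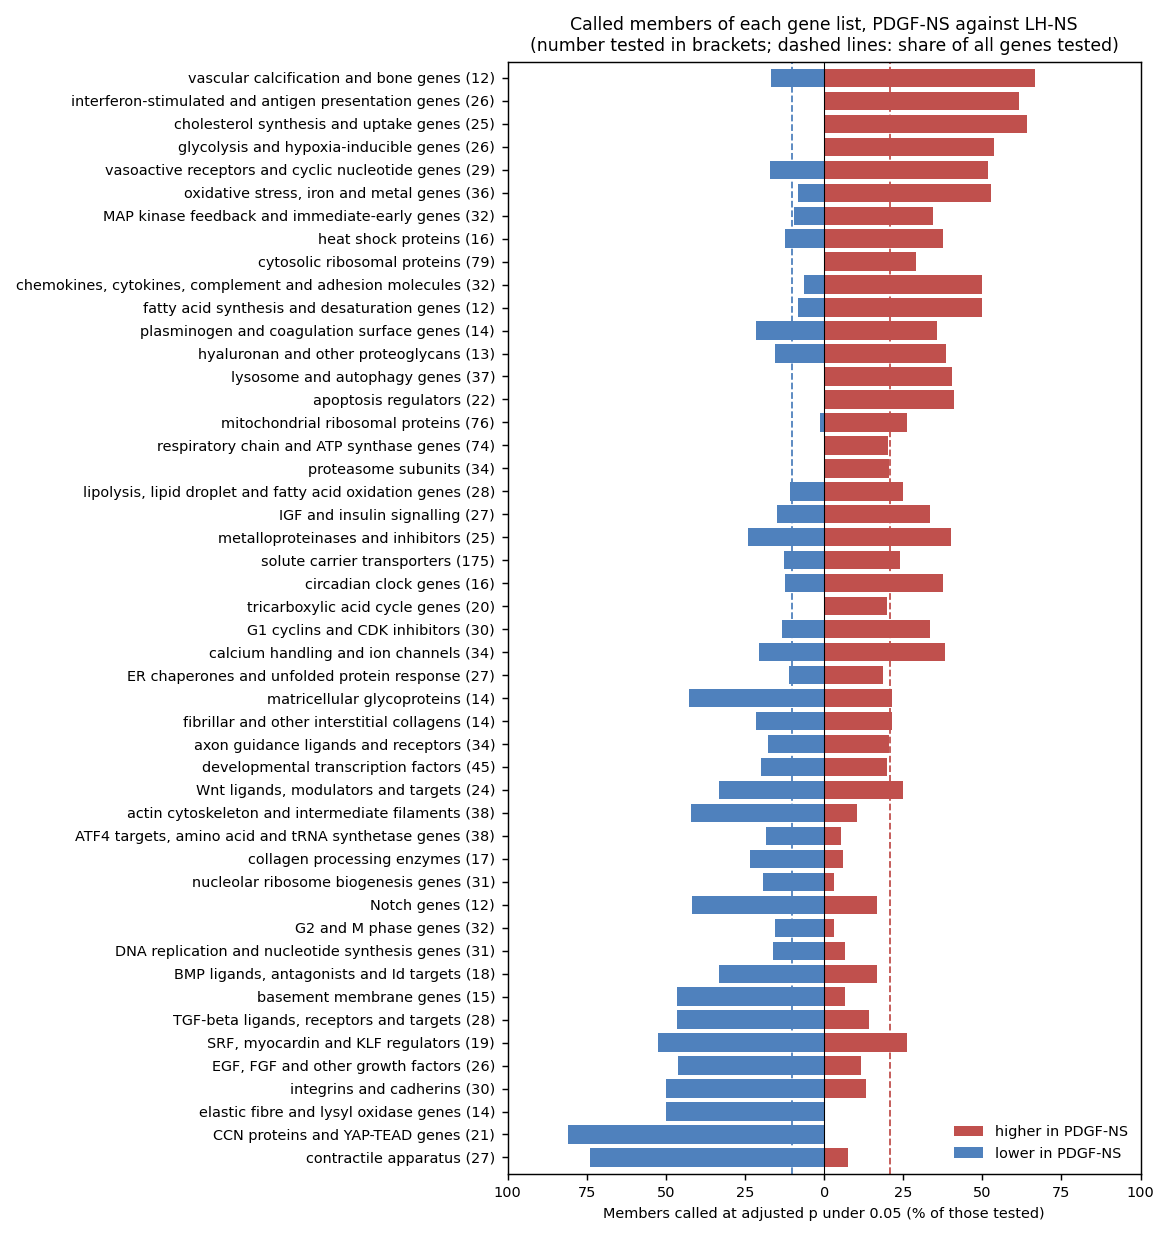
Share of the tested members of each gene list called higher (right) or lower (left) in PDGF-NS (IGF-1, 24 h, by record) against LH-NS, in percent, for the lists with at least 12 tested members, ordered by median log2 fold change. Dashed lines mark the 20.7% higher and 10.2% lower of all genes tested. The contractile and the CCN and YAP-TEAD lists reach farthest to the left, and the bone, interferon and cholesterol lists farthest to the right.

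Most contractile genes fell, from filament proteins to the kinase that activates myosin. Of 27 tested members of the 29 contractile genes, 20 fell, 2 rose and 5 did not pass, with a median of −1.25 (−1.38 scaled). Tagln, the actin-binding protein SM22 alpha, had 1739.6, 1878 and 2698 FPKM in LH-NS and 254, 186 and 193 FPKM in PDGF-NS, and its log2 fold change was −3.30 ± 0.18 (adjusted p = 3.6e-06). The controls spread widely, yet the lowest of them stood far above the highest PDGF-NS library. Lmod1, leiomodin, which nucleates actin filaments, had 182, 138 and 167 FPKM in LH-NS and 30.98, 25.7 and 31.8 FPKM in PDGF-NS (−2.42). The myosin light chain Myl9 fell by 2.63 and the tropomyosins TPM1 and Tpm2 fell by 2.28 and 1.13 on the log2 scale. Cald1, caldesmon, fell by 1.36 and Mylk, the kinase that starts contraction, by 0.63. Desmin, Des, an intermediate filament protein, went the other way, from 1.51 to 5.18 FPKM (1.30). Myh11, the smooth muscle myosin heavy chain, was below the filter.

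Calcium handling genes did not share one direction. Of 34 tested members of 52, 13 rose, 7 fell and 14 did not pass. The median of 0.05 turned to −0.06 after median ratio scaling, which gave 10 higher and 11 lower. The 2 that fell by most belong to the sarcoplasmic reticulum. Casq2, the calcium-binding protein of that store, had 68.5, 58.6 and 69.99 FPKM in LH-NS and 6.90, 9.83 and 9.00 FPKM in PDGF-NS, a change of −2.81 ± 0.15 (adjusted p = 3e-06). Pln, phospholamban, which restrains the calcium pump, had 492, 710.0 and 849 FPKM in LH-NS and 93.9, 48.1 and 55.5 FPKM in PDGF-NS (−3.38), and the pump itself, ATP2A2, fell by 0.69. Itpr1, the inositol trisphosphate receptor that releases the store, fell by 0.81. Channel genes of the surface membrane went both ways. Cacna1c, the L-type calcium channel, fell from 20.9 to 12.6 FPKM (−0.69, adjusted p = 0.014), a call that was lost without PDGF-NS library 1. Trpc6, a cation channel, had 14.8, 15.6 and 31.1 FPKM in LH-NS and 16.7, 23.5 and 22.5 FPKM in PDGF-NS and did not pass (adjusted p = 0.81). Ano1, a calcium-activated chloride channel, had 2.99, 6.11 and 4.01 FPKM in LH-NS and 45.6, 42.9 and 27.03 FPKM in PDGF-NS, a change of 2.89 ± 0.26 (adjusted p = 4.1e-05). Trpv2, a further cation channel, had 1.41, 1.10 and 1.29 FPKM in LH-NS and 7.19, 19.3 and 16.7 FPKM in PDGF-NS (2.66). Its library 1 was the lowest of the PDGF-NS libraries, though above all controls. Cacna2d1, an auxiliary calcium channel subunit, rose by 1.29, and ABCC9, the sulfonylurea receptor subunit of a potassium channel, rose from 54.02 to 139 FPKM.

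Several regulators of the contractile genes fell as well. Of 19 tested members of the 23 genes of serum response factor, myocardin and KLF regulation, 10 fell, 5 rose and 4 did not pass (median −0.46, −0.59 scaled). The number that fell was 6 without LH-NS library 1 or PDGF-NS library 3 and 5 without PDGF-NS library 1, and the number that rose was 2 without LH-NS library 2, PDGF-NS library 1 or PDGF-NS library 3 and 3 without LH-NS library 3. After each of the 3 rescalings 3 rose. Srf itself had 37.1, 20.4 and 27.3 FPKM in LH-NS and 8.06, 8.79 and 9.10 FPKM in PDGF-NS, a change of −1.56 ± 0.23 (adjusted p = 0.00074). Myocd, its coactivator, fell in all 3 PDGF-NS libraries to between 4.94 and 5.89 FPKM, and Mkl1, a coactivator that responds to actin, fell by 1.24. Fhl2, a LIM-domain partner of the factor and one of its targets, had 41.6, 35.3 and 56.4 FPKM in LH-NS and 7.79, 5.20 and 7.16 FPKM in PDGF-NS (−2.55). Acta1, skeletal alpha-actin and a classical target, had 104, 59.8 and 194 FPKM in LH-NS and 5.14, 4.59 and 4.21 FPKM in PDGF-NS, a change of −4.26 ± 0.33 (adjusted p = 1.7e-05).

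The start regions of these targets were searched for CArG boxes in the 250 bases before the RefSeq start (build GRCr8), on both strands. Of the tested genes, 7959 matched a promoter by symbol. A CArG box stood in 3 of 12 matched members of the regulator list, in 2 of 21 contractile genes and in 3 of 34 genes of the actin cytoskeleton list. It stood in 1.27% of all promoters of tested genes. The regions of 3 genes that fell are shown because each holds the box, in capitals, and of Amotl2 because it holds the reverse complement of GGAATG, the core to which TEAD factors bind. That reverse complement also stands in the regions of Fhl2 and Acta1, where it is left in lower case. In the table Srf is ENSRNOG00000018232, Fhl2 is ENSRNOG00000016866, Acta1 is ENSRNOG00000017786 and Amotl2 is ENSRNOG00000008487. In the region of Srf 2 boxes stand 51 and 71 bases from the start. No printed motif overlapped another of those searched. A match is a description of letters and not a measured binding site.
Srf (chr9:21923826-21924075, plus strand): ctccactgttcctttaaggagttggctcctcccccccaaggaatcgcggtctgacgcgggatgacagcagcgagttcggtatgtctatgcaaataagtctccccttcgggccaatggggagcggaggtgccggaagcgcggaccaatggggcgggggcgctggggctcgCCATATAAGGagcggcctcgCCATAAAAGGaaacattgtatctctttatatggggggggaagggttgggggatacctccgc
Fhl2 (chr9:52954541-52954790, minus strand): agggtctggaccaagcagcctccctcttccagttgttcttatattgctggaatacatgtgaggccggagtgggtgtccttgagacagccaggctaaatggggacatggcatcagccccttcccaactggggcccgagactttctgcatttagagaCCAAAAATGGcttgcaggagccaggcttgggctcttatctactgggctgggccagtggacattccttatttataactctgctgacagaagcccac
Acta1 (chr19:68784195-68784444, minus strand): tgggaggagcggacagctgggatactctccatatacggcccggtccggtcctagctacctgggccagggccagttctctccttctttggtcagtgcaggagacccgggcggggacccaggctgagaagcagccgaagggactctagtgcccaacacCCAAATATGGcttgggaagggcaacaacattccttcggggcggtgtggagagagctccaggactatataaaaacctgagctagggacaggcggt
Amotl2 (chr8:112182376-112182625, plus strand): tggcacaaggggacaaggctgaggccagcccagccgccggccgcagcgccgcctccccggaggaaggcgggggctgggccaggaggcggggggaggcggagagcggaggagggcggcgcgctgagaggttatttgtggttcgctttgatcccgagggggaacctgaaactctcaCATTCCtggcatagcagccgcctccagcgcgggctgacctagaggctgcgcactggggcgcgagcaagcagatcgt

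**Figure D2:**
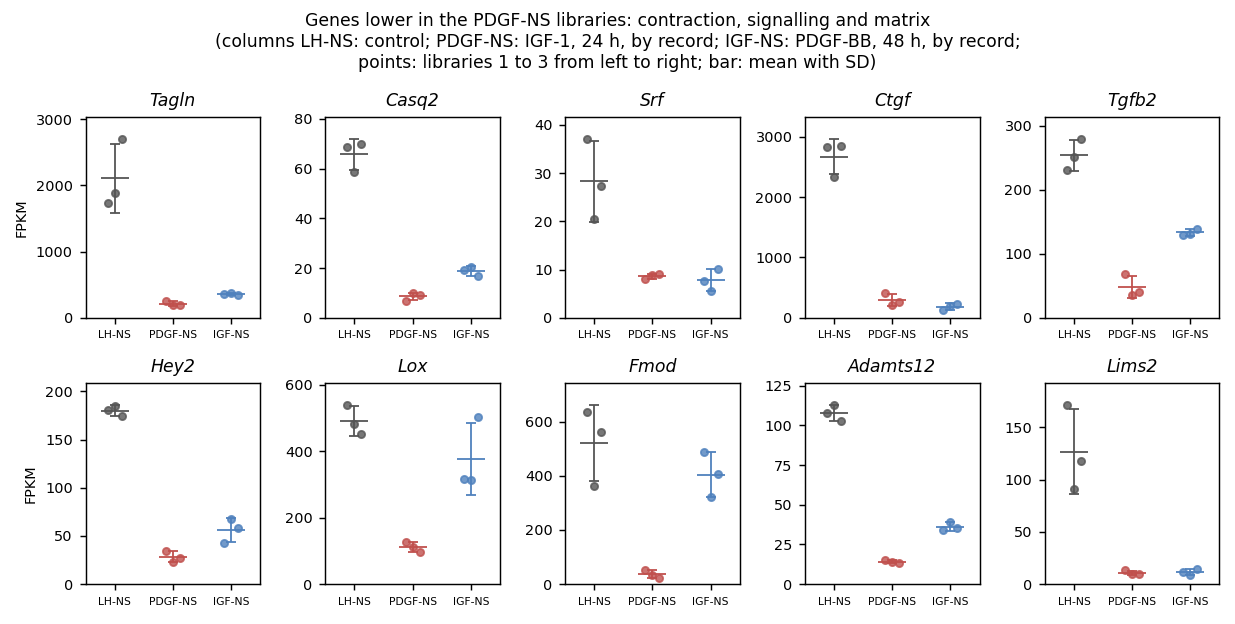
FPKM of 10 genes that fell in the PDGF-NS libraries, on linear axes that start at 0, with 3 libraries per set, their mean and SD. The PDGF-NS points lie below every LH-NS point in each panel. In several panels, those of Fmod, Lox, Tgfb2 and Tagln among them, the IGF-NS points (PDGF-BB, 48 h, by record) lie above every PDGF-NS point.

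Receptors and enzymes of vasoactive signals rose more often than they fell. Of 29 tested members of 45, 15 rose, 5 fell and 9 did not pass (median 0.57, 0.44 scaled). With a mean of at least 5 FPKM 7 rose, and without LH-NS library 2 the number that fell was 3. Ednra, the endothelin receptor of smooth muscle, had 6.99, 6.73 and 6.27 FPKM in LH-NS and 68.6, 74.4 and 61.2 FPKM in PDGF-NS, a change of 3.17 ± 0.12 (adjusted p = 4.3e-07). Its libraries were tight in both sets, with no overlap. Edn1, which encodes the ligand endothelin-1, had 14.4, 15.05 and 17.1 FPKM in LH-NS and 2.89, 2.69 and 2.93 FPKM in PDGF-NS and fell by 2.10, so receptor and ligand moved in opposite directions. Ptgs1, the constitutive cyclooxygenase, had 5.98, 3.91 and 3.81 FPKM in LH-NS and 52.1, 78.4 and 71.6 FPKM in PDGF-NS, a change of 3.62 ± 0.19 (adjusted p = 3e-06). Ramp3, a subunit of adrenomedullin receptors, was at 0.454, 0.336 and 1.29 FPKM in LH-NS and 11.7, 12.9 and 10.7 FPKM in PDGF-NS. With a mean of 0.176 FPKM in IGF-NS, it passed the filter only through the PDGF-NS libraries. Adm, adrenomedullin, rose by 1.49. Agtr1a, an angiotensin II receptor, rose from 1.13 to 4.05 FPKM. On the cyclic GMP side Npr3, the clearance receptor of natriuretic peptides, had 75.3, 57.3 and 45.5 FPKM in LH-NS and 7.65, 5.38 and 4.41 FPKM in PDGF-NS (−3.15), and Gucy1b3, a subunit of the nitric oxide receptor, fell from 94.1 to 32.96 FPKM (−1.49). Of 8 tested regulators of G-protein signalling, which shorten receptor signals, 3 rose and 1 fell. Rgs2 had 4.38, 5.49 and 5.61 FPKM in LH-NS and 13.2, 34.9 and 30.02 FPKM in PDGF-NS (2.03) and Rgs10 rose by 1.32, whereas Rgs7bp fell by 1.31.

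Enzymes that act on nucleotides outside the cell were among the genes that rose by most. Of 10 tested members of 16 ectonucleotidase and adenosine genes, 6 rose and 1 fell (median 0.97, 0.86 scaled). Nt5e, CD73, which makes adenosine from AMP, had 4.99, 6.61 and 6.72 FPKM in LH-NS and 37.6, 51.96 and 57.1 FPKM in PDGF-NS, a change of 2.80 ± 0.17 (adjusted p = 5.6e-06). Enpp3, a nucleotide pyrophosphatase, had 12.6, 9.61 and 8.05 FPKM in LH-NS and 111, 112 and 106 FPKM in PDGF-NS (3.34). Slc29a1, a nucleoside transporter, had 3.51, 3.37 and 1.71 FPKM in LH-NS and 38.3, 39.1 and 32.1 FPKM in PDGF-NS (3.31). In each of these 3 genes the lowest PDGF-NS library stood more than 4 times above the highest control. P2ry2, a receptor for ATP and UTP, fell by 1.05. Against IGF-NS, Nt5e was higher by 4.23 (adjusted p = 1.7e-06) and Enpp3 by 3.17 (adjusted p = 1.1e-05). That contrast called 948 genes higher and 859 lower in PDGF-NS, or 8.33% and 7.55% of those tested. The IGF-NS libraries were harvested later by record, so growth factor and time cannot be told apart in it.

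**Figure D3:**
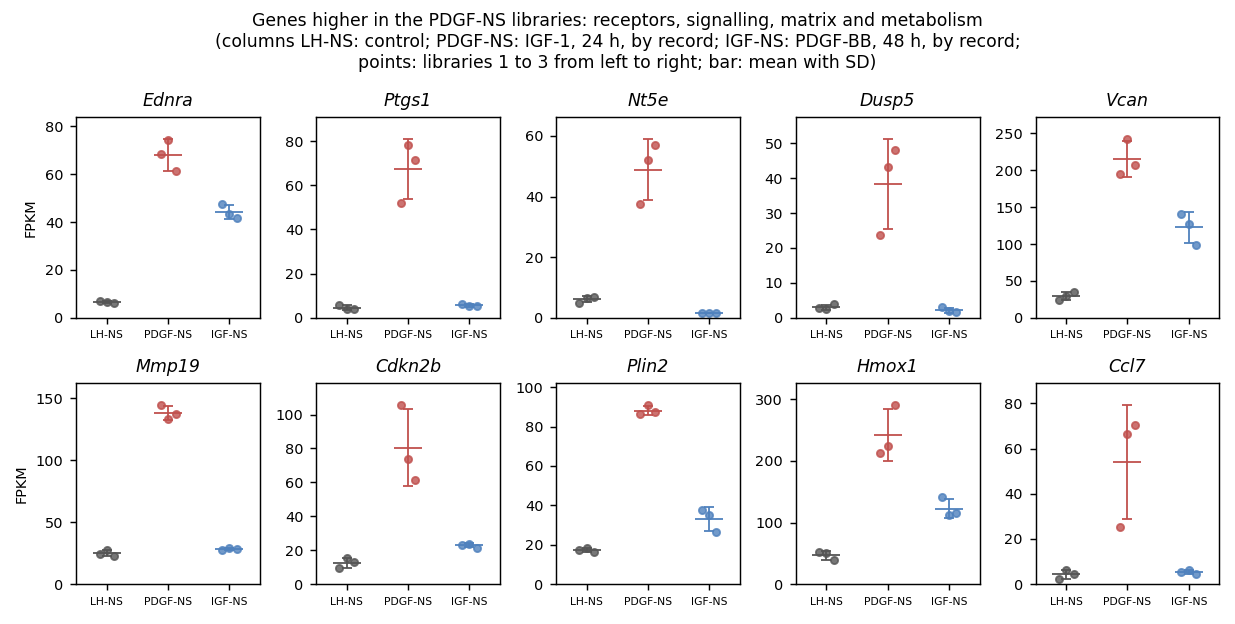
FPKM of 10 genes that rose in the PDGF-NS libraries, on linear axes that start at 0, with 3 libraries per set, their mean and SD. The PDGF-NS points lie above every LH-NS point in each panel, and library 1 is the lowest PDGF-NS point for Ptgs1, Nt5e, Dusp5, Vcan, Plin2, Hmox1 and Ccl7.

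Targets of YAP and TEAD, which report tension and cell shape, fell in most cases. All 21 genes of the CCN and YAP-TEAD list were tested, 17 fell and 0 rose, and 4 did not pass (median −1.20, −1.33 scaled). Ctgf, a matricellular protein, had 2834, 2336 and 2843 FPKM in LH-NS and 410.3, 219 and 265 FPKM in PDGF-NS, a change of −3.21 ± 0.26 (adjusted p = 2.4e-05). Its relatives Cyr61 and Nov fell by 3.13 and 1.96, while Wisp2 stood at −0.18 on the log2 scale (adjusted p = 0.59). Amotl2, an angiomotin that feeds back on YAP, had 162, 115 and 129 FPKM in LH-NS and 27.3, 20.1 and 18.9 FPKM in PDGF-NS (−2.56). Ankrd1, an ankyrin repeat protein of stretched muscle, and Crim1, a membrane protein that binds BMPs, fell by 2.32 and 2.44. The letters GGAATG stood in 5 of the 12 matched promoters of this list and in 9.79% of promoters of tested genes.

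The TGF-beta ligands parted. Of 28 tested members of 29 TGF-beta genes, 13 fell, 4 rose and 11 did not pass (median −0.45, −0.58 scaled). Tgfb2 had 231, 251 and 279 FPKM in LH-NS and 68.2, 36.3 and 40.1 FPKM in PDGF-NS (−2.42). Tgfb3 had 205, 172 and 295 FPKM in LH-NS and 42.5, 28.9 and 27.1 FPKM in PDGF-NS, a change of −2.73 ± 0.25 (adjusted p = 4.1e-05). Tgfb1 rose from 189.7 to 370.1 FPKM (0.97). Tgfbr3, the coreceptor betaglycan, rose by 1.64, and SMAD3, which carries the signal to the nucleus, fell by 1.20. Ltbp1, which tethers the latent ligand, fell by 1.32. Tgfbi, a secreted adhesion protein that TGF-beta induces in many cells, rose from 1.44 ± 0.213 to 64.2 ± 13.4 FPKM (SD, n = 3). Of 18 tested BMP genes 6 fell and 3 rose, and Bmp4 had 146, 161 and 191 FPKM in LH-NS and 60.5, 40.5 and 37.9 FPKM in PDGF-NS (−1.84). Bmp3 fell to 1.30, 0.782 and 0.851 FPKM from 55.3, 29.9 and 31.2, one of the largest falls. Id4, a repressor of differentiation that BMP signals induce, rose by 1.66.

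Of 12 tested Notch genes of 18, 5 fell, 2 rose and 5 did not pass (median −0.21, −0.32 scaled). Those that fell included a ligand, a receptor and a target. Hey2, a transcriptional repressor downstream of Notch, had 181, 185 and 174 FPKM in LH-NS and 34.6, 23.3 and 27.5 FPKM in PDGF-NS, a change of −2.64 ± 0.19 (adjusted p = 1.2e-05). The ligand Jag1 had 104, 89.7 and 82.4 FPKM in LH-NS and 26.3, 18.9 and 20.6 FPKM in PDGF-NS (−2.03). The receptor Notch3 had 91.04, 57.4 and 42.1 FPKM in LH-NS and 13.03, 19.4 and 16.3 FPKM in PDGF-NS (−1.85). Hes1, a further Notch target, had 30.4, 32.5 and 30.2 FPKM in LH-NS and 50.05, 36.8 and 68.1 FPKM in PDGF-NS and rose by 0.67 ± 0.20 (adjusted p = 0.027). That call was lost after each rescaling and when any library of either set but PDGF-NS library 2 was left out. Hey2, Jag1 and Notch3 lay lower than in IGF-NS as well, by −0.95, −1.51 and −1.58, and 6 of the 12 did. Among 24 tested Wnt genes 8 fell and 6 rose: Fzd7, a receptor, fell by 1.52, Wnt5a, a ligand, rose by 1.48, and Nkd2, an antagonist, fell to between 5.20 and 5.93 FPKM. Of 34 tested genes of axon guidance 7 rose, near the share of all genes, and 6 fell, or 11 fell after median ratio scaling. The secreted ligands Slit2 and Slit3 went apart. Slit3 had 24.5, 16.8 and 18.9 FPKM in LH-NS and 1.63, 1.79 and 2.17 FPKM in PDGF-NS, a change of −2.87 ± 0.22 (adjusted p = 1.6e-05). Slit2 had 10.03, 12.4 and 12.9 FPKM in LH-NS and 28.6, 35.4 and 24.96 FPKM in PDGF-NS, a change of 1.25 ± 0.16 (adjusted p = 0.00028).

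Many adhesion genes and genes of the actin cytoskeleton fell. Of 30 tested members of 34 integrin, cadherin and focal adhesion genes, 15 fell, 4 rose and 11 did not pass (median −0.51, −0.65 scaled). Lims2, a focal adhesion adaptor, had 171, 91.4 and 118 FPKM in LH-NS and 13.2, 9.55 and 9.51 FPKM in PDGF-NS, a change of −3.41 ± 0.24 (adjusted p = 1.2e-05). Itga11, a collagen receptor, had 55.6, 32.3 and 33.3 FPKM in LH-NS and 5.82, 7.78 and 5.96 FPKM in PDGF-NS (−2.43), and the collagen receptor Itga1 and the muscle integrin Itga8 fell by 1.26 and 1.55. Vcl, vinculin, went from 341, 348 and 455 FPKM to 90.5, 90.03 and 90.8 FPKM (−2.05) and Zyx, zyxin, fell by 1.25. The 4 that rose included the chains Itga5, Itgb3 and Itgb8, at 0.76, 0.73 and 1.64. In the list of the actin cytoskeleton and intermediate filaments 16 of 38 tested members fell and 4 rose. Pdlim1, a scaffold of stress fibres, had 689, 677 and 722 FPKM in LH-NS and 136, 125 and 137 FPKM in PDGF-NS, a change of −2.38 ± 0.11 (adjusted p = 1.7e-06). Flna, a filamin, fell by 1.85, the actinins Actn1 and Actn4 fell by 1.01 and 1.83, and Palld, palladin, by 1.81. Cdh2, N-cadherin, fell by 1.05.

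Of 14 tested elastic fibre genes of 18, 7 fell, elastin among them, 0 rose and 7 did not pass (median −0.70, −0.83 scaled). Without PDGF-NS library 1, 4 rose and 7 fell. Lox, the enzyme that crosslinks elastin and collagen, had 538, 482 and 451 FPKM in LH-NS and 127, 111 and 96.01 FPKM in PDGF-NS, a change of −2.14 ± 0.19 (adjusted p = 3.9e-05). Fbln5, fibulin 5, a scaffold of the fibre, had 1626, 1559 and 1351 FPKM in LH-NS and 469.9, 514 and 454 FPKM in PDGF-NS (−1.65). Loxl1, a further crosslinking enzyme, fell by 1.42, and the microfibril proteins Mfap4 and Mfap5 fell by 2.10 and 1.51. Elastin and these 5 genes also lay below IGF-NS, and their differences ranged from −3.95 for Eln to −1.32 for Fbln5. Fbn1, fibrillin 1, had 83.1, 88.1 and 77.5 FPKM in LH-NS and 91.2, 126 and 109.6 FPKM in PDGF-NS and did not pass (adjusted p = 0.072). Its libraries did not overlap, and without PDGF-NS library 1 it was called higher.

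Other matrix families were mixed. Of 15 tested basement membrane genes 7 fell and 1 rose (median −0.41, −0.54 scaled). Col4a1, a network collagen, had 101, 91.3 and 83.9 FPKM in LH-NS and 37.9, 40.1 and 41.5 FPKM in PDGF-NS, a change of −1.19 ± 0.11 (adjusted p = 6e-05), and Nid1, which links that network to laminin, fell by 1.34. Sparc, a collagen-binding protein that was among the most abundant transcripts, fell from 8653 to 4304 FPKM. COL15A1 rose by 1.25. Of 14 tested interstitial collagens 3 rose and 3 fell, or 1 fell without LH-NS library 2 or 3 or PDGF-NS library 2 or 3. Col6a3, a chain of the beaded filament collagen, had 16.1, 10.9 and 11.9 FPKM in LH-NS and 66.4, 99.3 and 79.5 FPKM in PDGF-NS (2.57), and Col5a1, a regulator of fibril width, fell by 0.79. Col1a1 had 3686, 2371 and 2575 FPKM in LH-NS and 1444, 2548 and 2062 FPKM in PDGF-NS and did not pass (adjusted p = 0.14). Of 14 tested matricellular glycoproteins 6 fell and 3 rose, or 3 fell without any 1 of the PDGF-NS libraries. Small leucine-rich proteoglycans shape collagen fibrils, and 7 of 10 were tested, of which 3 fell and 2 rose. Fmod, fibromodulin, had 637, 364 and 562 FPKM in LH-NS and 52.1, 31.8 and 23.9 FPKM in PDGF-NS, a change of −3.85 ± 0.29 (adjusted p = 1.5e-05). Its relative Lum, lumican, had 276, 349 and 395 FPKM in LH-NS and 1261, 773 and 1158 FPKM in PDGF-NS, a change of 1.63 ± 0.20 (adjusted p = 0.00023).

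Genes of matrix rich in hyaluronan and of matrix-cutting enzymes rose and fell. Of 13 tested hyaluronan and proteoglycan genes 5 rose and 2 fell (median 0.40, 0.33 scaled). Vcan, versican, a large proteoglycan of provisional matrix, had 24.3, 29.9 and 34.5 FPKM in LH-NS and 195, 242 and 207 FPKM in PDGF-NS, a change of 2.83 ± 0.17 (adjusted p = 5.1e-06). Cd44, the hyaluronan receptor, had 22.8, 26.9 and 40.7 FPKM in LH-NS and 85.6, 65.8 and 73.5 FPKM in PDGF-NS (1.32), and Tmem2, a hyaluronidase of the cell surface, rose by 2.14. Of 25 tested metalloproteinases and inhibitors 10 rose and 6 fell. Mmp19 had 24.1, 27.3 and 22.8 FPKM in LH-NS and 144, 133 and 137 FPKM in PDGF-NS, a change of 2.44 ± 0.11 (adjusted p = 1.5e-06), and Adam12 and Mmp2 rose by 2.26 and 1.95. Adamts12 fell from 108, 113 and 103 FPKM to 14.98, 14.1 and 13.5 FPKM (−2.84), Adamts9 fell by 2.40, and the inhibitor Timp3 fell by 1.45. Of 14 tested genes of plasminogen and surface coagulation 5 rose and 3 fell, or 5 fell without LH-NS library 1. Plat, the tissue plasminogen activator, had 28.6, 35.6 and 31.3 FPKM in LH-NS and 128, 149.9 and 143 FPKM in PDGF-NS (2.11). Serpine2, a protease inhibitor, had 114, 151 and 128 FPKM in LH-NS and 682, 584 and 549.9 FPKM in PDGF-NS, a change of 2.20 ± 0.14 (adjusted p = 6.2e-06). F2r, the thrombin receptor, fell by 1.63 and Thbd, thrombomodulin, by 1.87.

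Most genes of calcification and bone rose, and they included both promoters and inhibitors of mineral. Of 12 tested members of 19, 8 rose, 2 fell and 2 did not pass (median 0.89, 0.76 scaled). Runx2, a factor of bone formation, had 3.26, 2.70 and 2.37 FPKM in LH-NS and 8.37, 9.34 and 7.74 FPKM in PDGF-NS, a change of 1.33 ± 0.15 (adjusted p = 0.00013). Sox9, a factor of cartilage, had 15.1, 13.1 and 21.3 FPKM in LH-NS and 31.9, 64.8 and 53.3 FPKM in PDGF-NS (1.51). Mgp, an inhibitor of vascular calcification, had 2797, 4670.0 and 5098 FPKM in LH-NS and 12599, 8729 and 7727 FPKM in PDGF-NS (1.22). The pyrophosphate source Enpp1 and its exporter Ankh, both of which hold mineral back, rose by 1.03 and 0.75. Spp1, osteopontin, was at 366, 906 and 583 FPKM in LH-NS and 10807, 8041 and 9577 FPKM in PDGF-NS. Tnfrsf11b, osteoprotegerin, a decoy receptor that slows bone resorption, fell by 1.12. Against IGF-NS 9 of the 12 were higher and 0 lower, while in IGF-NS against LH-NS 6 fell and 2 rose.

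Components of the 2 growth factor pathways named for these libraries went both ways. Of 27 tested genes of IGF and insulin signalling 9 rose and 4 fell (median 0.20, 0.08 scaled), or 9 and 7 after median ratio scaling. Igf1r, the IGF-1 receptor, had 63.96, 57.5 and 66.4 FPKM in LH-NS and 32.2, 33.2 and 28.2 FPKM in PDGF-NS, a change of −0.98 ± 0.13 (adjusted p = 0.00041). The adaptors Irs1 and Irs2 had −1.12 and −1.12 on the log2 scale, and Grb14, an inhibitory adaptor, fell from 183 to 58.8 FPKM. Insr, the insulin receptor, had 18.02, 13.8 and 12.9 FPKM in LH-NS and 13.8, 12.9 and 11.8 FPKM in PDGF-NS and did not pass (adjusted p = 0.33). Igf2r, which clears IGF-2, had 25.4, 23.02 and 19.6 FPKM in LH-NS and 52.7, 62.6 and 53.8 FPKM in PDGF-NS (1.28). Sesn3, a target of FOXO factors that restrains mTORC1, had 47.6, 30.7 and 20.8 FPKM in LH-NS and 96.6, 134 and 117 FPKM in PDGF-NS (1.85), Ddit4, which does the same under stress, rose by 1.72, and Pik3r1, the regulatory subunit of PI3K, by 0.73. Among the IGF-binding proteins, Igfbp5 had 0.672, 0.431 and 1.13 FPKM in LH-NS and 43.4, 148 and 79.4 FPKM in PDGF-NS (5.56). Igfbp2 had 144, 76.9 and 66.9 FPKM in LH-NS and 5.42, 7.12 and 7.33 FPKM in PDGF-NS (−3.59). Igfbp7 fell by 0.97. Of the 8 tested genes of IGF-binding proteins and their proteases 3 rose and 2 fell.

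All 8 genes of the PDGF axis were tested, and 2 rose and 2 fell. After each rescaling 1 rose and 2 fell. With 1 library left out the number that rose was 1 or 2, as was the number that fell. Pdgfra had 11.6, 12.8 and 9.98 FPKM in LH-NS and 26.6, 30.2 and 26.7 FPKM in PDGF-NS, a change of 1.22 ± 0.14 (adjusted p = 0.00014). Pdgfrb, the main receptor of PDGF-BB, had 557, 386 and 359.7 FPKM in LH-NS and 319, 348 and 318 FPKM in PDGF-NS and did not pass, with a change of −0.38 ± 0.19 (adjusted p = 0.15). The ligand Pdgfd fell by 1.44. Among 26 tested genes of the EGF, FGF and other growth factor families 12 fell and 3 rose (median −0.50, −0.61 scaled), or 1 rose without LH-NS library 3 or PDGF-NS library 3 and after median ratio scaling. Kitlg, stem cell factor, had 2.53, 4.92 and 5.53 FPKM in LH-NS and 19.97, 26.3 and 27.8 FPKM in PDGF-NS, a change of 2.31 ± 0.23 (adjusted p = 7.5e-05). The receptors Fgfr2 and Fgfr3 fell by 1.33 and 1.64, and the EGF receptor ligands Btc, Ereg and Hbegf fell by 2.02, 1.30 and 0.73.

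Feedback genes of the MAP kinase cascade, which are read as a trace of ERK activity, split by member. Of the 34 genes 32 were tested, and 11 rose and 3 fell (median 0.49, 0.37 scaled). Dusp5, a nuclear phosphatase of ERK, had 2.87, 2.49 and 3.84 FPKM in LH-NS and 23.7, 43.1 and 48.1 FPKM in PDGF-NS, a change of 3.22 ± 0.27 (adjusted p = 2.4e-05). Dusp6, its counterpart in the cytoplasm, had 14.3, 16.5 and 15.9 FPKM in LH-NS and 21.97, 41.01 and 46.2 FPKM in PDGF-NS (1.11). Fosl1, the AP-1 subunit Fra-1, had 5.83, 3.22 and 8.67 FPKM in LH-NS and 18.2, 29.97 and 27.1 FPKM in PDGF-NS (1.97), and ETV1, an ETS factor, rose by 2.10. In the PDGF-NS set library 1 was the lowest for each of Dusp5, Dusp6 and Fosl1. Dusp1, a phosphatase that stress and serum induce, went the other way, with 146, 99.7 and 176 FPKM in LH-NS and 14.7, 20.1 and 37.9 FPKM in PDGF-NS, a change of −2.55 ± 0.32 (adjusted p = 0.00025). Dusp8 fell by 2.34. Myc, the growth-promoting factor, had 104, 82.2 and 66.7 FPKM in LH-NS and 18.8, 19.6 and 18.001 FPKM in PDGF-NS, a change of −2.08 ± 0.16 (adjusted p = 1.5e-05), with every PDGF-NS library below 20 FPKM. Egr1 had 87.99, 79.1 and 76.3 FPKM in LH-NS and 113, 70.7 and 339 FPKM in PDGF-NS and did not pass (adjusted p = 0.22). Against IGF-NS 18 of the 32 genes were higher and 2 lower, and Dusp5 and Fosl1 differed by 3.60 (adjusted p = 2.7e-05) and 3.79 (adjusted p = 4.1e-05). In IGF-NS against LH-NS 16 of the 32 fell and 1 rose, so this contrast also holds falls in IGF-NS.

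Few genes of cell division passed the test against the control. Of 32 tested G2 and M phase genes 5 fell and 1 rose (median −0.22, −0.33 scaled). The number that fell ran from 0, without LH-NS library 3 or PDGF-NS library 1, through 1, without LH-NS library 2 or PDGF-NS library 3, to 5 with all libraries, and it was 2 with no filter on low values. Mki67, the Ki-67 antigen, had 12.3, 18.8 and 15.7 FPKM in LH-NS and 13.3, 20.4 and 18.2 FPKM in PDGF-NS and did not pass (adjusted p = 0.67). Top2a, a topoisomerase of mitosis, had 6.08, 7.87 and 6.31 FPKM in LH-NS and 4.58, 6.58 and 7.09 FPKM in PDGF-NS (adjusted p = 0.7). The sets overlapped in both. Against IGF-NS 27 of the 32 were lower and 0 higher, and Mki67 differed by −1.22 (adjusted p = 0.0047). In IGF-NS against LH-NS 24 of the 32 rose and 0 fell. Among 31 tested genes of DNA replication and nucleotide synthesis 5 fell and 2 rose (median −0.28, −0.41 scaled). The number that fell was 1 without PDGF-NS library 1 or PDGF-NS library 3, 2 without LH-NS library 1 and 3 without LH-NS library 2 or PDGF-NS library 2. Fen1, a flap nuclease, fell by 0.99 and Tyms, thymidylate synthase, rose by 0.60. Pcna, the replication clamp, had 60.2, 105 and 96.3 FPKM in LH-NS and 84.7, 83.1 and 106 FPKM in PDGF-NS and did not pass (adjusted p = 0.77).

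Several inhibitors of the cell cycle and targets of p53 rose. Of 30 tested G1 cyclins and inhibitors of cyclin-dependent kinases 10 rose and 4 fell, or 7 and 7 after median ratio scaling, where the median of 0.09 turned to −0.01. The number that fell was 1 without LH-NS library 2 or PDGF-NS library 1 and 2 without LH-NS library 1 or PDGF-NS library 2. Cdkn2b, the inhibitor p15, had 9.32, 15.5 and 12.7 FPKM in LH-NS and 105, 73.9 and 61.5 FPKM in PDGF-NS, a change of 2.58 ± 0.21 (adjusted p = 2.4e-05). Cdkn1a, the inhibitor p21, had 80.8, 98.8 and 88.9 FPKM in LH-NS and 157, 151 and 209.8 FPKM in PDGF-NS (0.93). Mdm2, which limits p53 and is one of its targets, had 21.02, 38.6 and 40.9 FPKM in LH-NS and 98.4, 68.3 and 123 FPKM in PDGF-NS (1.52), and Ccng1, a further p53 target, rose by 1.51. Ccng2, an atypical cyclin that FOXO factors induce, had 8.87, 13.1 and 8.61 FPKM in LH-NS and 42.7, 34.6 and 41.1 FPKM in PDGF-NS (1.87). Cdkn1b, p27, stood at 0.03 on the log2 scale (adjusted p = 0.92).

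Genes of cholesterol synthesis rose. Of 25 tested members of the 28 genes of cholesterol synthesis and uptake, 16 rose, 0 fell and 9 did not pass (median 0.79, 0.67 scaled). The number that rose was 9 without LH-NS library 1 or LH-NS library 3 and 7 without PDGF-NS library 3. Hsd17b7, an enzyme of late cholesterol synthesis, had 3.19, 9.76 and 4.84 FPKM in LH-NS and 51.7, 37.02 and 42.3 FPKM in PDGF-NS, a change of 2.79 ± 0.31 (adjusted p = 0.00015). CYP51A1, lanosterol demethylase, had 28.3, 59.96 and 34.5 FPKM in LH-NS and 128, 121 and 149.9 FPKM in PDGF-NS (1.74). Msmo1, a sterol oxidase, had 41.5, 101 and 81.2 FPKM in LH-NS and 207, 179.7 and 257 FPKM in PDGF-NS (1.59). In LH-NS library 2 all 3 genes were at their highest control level, though below every PDGF-NS library. Insig1, a sensor that holds the pathway in check, rose by 1.40 and Sqle, squalene epoxidase, by 1.18. The letters CCAAT stood in 13 of 17 matched promoters of this list and in 35.9% of those of tested genes. They were not particular to it, since they also stood in 22 of 28 matched promoters of the G2 and M phase list. TCACNCCAC, a sterol regulatory element, stood in 0 of the 17 and in 1.04% of those of tested genes.

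Of 12 tested genes of fatty acid synthesis and desaturation 6 rose and 1 fell (median 0.43, 0.31 scaled). Scd, the stearoyl-CoA desaturase, had 151, 334 and 152 FPKM in LH-NS and 687, 778 and 783 FPKM in PDGF-NS (1.92). Fads1, a desaturase of polyunsaturated fatty acids, had 27.05, 37.2 and 20.9 FPKM in LH-NS and 106, 105 and 99.4 FPKM in PDGF-NS (1.87). Srebf1, the factor that drives the pathway, rose by 1.38. Fasn, the fatty acid synthase, stood at 0.37 on the log2 scale (adjusted p = 0.096). Plin2, which coats lipid droplets, had 17.5, 18.3 and 16.4 FPKM in LH-NS and 86.2, 90.9 and 87.5 FPKM in PDGF-NS, a change of 2.28 ± 0.14 (adjusted p = 5.1e-06), and Pparg, a nuclear receptor of fat storage, rose from 5.50 to 17.5 FPKM. PNPLA2, the triglyceride lipase, whose symbol stands on more than 1 row of the table, fell by 0.84, while its inhibitor G0s2 had 0.970, 1.08 and 2.07 FPKM in LH-NS and 25.5, 84.98 and 79.4 FPKM in PDGF-NS (4.61). Of the 28 tested genes of lipolysis, lipid droplets and fatty acid oxidation 7 rose and 3 fell, near the share of all genes, or 6 and 4 after median ratio scaling.

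Glycolytic and hypoxia-inducible genes rose in 14 of 26 tested members and fell in 0 (median 0.74, 0.62 scaled). The number that rose was 8 without PDGF-NS library 2 or PDGF-NS library 3. Aldoc, an aldolase, had 7.94, 8.33 and 4.77 FPKM in LH-NS and 38.9, 42.8 and 33.1 FPKM in PDGF-NS, a change of 2.32 ± 0.21 (adjusted p = 3.9e-05). Bnip3, a hypoxia-induced mitophagy receptor, had 20.7, 30.1 and 21.5 FPKM in LH-NS and 65.9, 95.7 and 93.5 FPKM in PDGF-NS (1.78). Slc2a1, the glucose transporter GLUT1, had 32.6, 29.3 and 34.3 FPKM in LH-NS and 37.04, 46.7 and 42.2 FPKM in PDGF-NS and did not pass (adjusted p = 0.08). Among respiratory chain genes the rises lay near the share of all genes, with 15 of 74 higher (median 0.28, 0.15 scaled). The falls lay below the 10.2% of all genes, with 0 lower. Without PDGF-NS library 2, 9 were higher, and without PDGF-NS library 3, 7 were. Ndufa4 and Ndufc2, subunits of that chain, rose by 1.06 and 1.11. Of 20 tricarboxylic acid cycle genes 4 rose, near the share of all genes, and 0 fell. The number that rose was 2 without LH-NS library 1 or 2 and 1 without PDGF-NS library 2 or 3. The median of 0.10 turned to −0.03 after median ratio scaling.

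Among 79 tested cytosolic ribosomal protein genes 23 rose and 0 fell (median 0.48, 0.34 scaled), with 12 rising without PDGF-NS library 3 and 15 with no filter on low values. These genes have near-identical copies, so reads could have been split between them. Rpl22l1, a paralogue that replaces a core subunit in some ribosomes, had 35.7, 59.3 and 59.5 FPKM in LH-NS and 214, 160.5 and 231 FPKM in PDGF-NS, a change of 1.97 ± 0.22 (adjusted p = 0.00015). Of 76 mitochondrial ribosomal protein genes 20 rose, not far above the 20.7% of all genes, and 1 fell. Without PDGF-NS library 1, 2 and 3, 13, 11 and 11 rose. After median ratio scaling 12 rose and 4 fell, and the rises lay near the share of all genes, 1754 of 11376. Among the nucleolar genes that build ribosomes 6 of 31 fell and 1 rose (median −0.20, −0.33 scaled). The number that fell was 2 without PDGF-NS library 1 or PDGF-NS library 3 and 10 after median ratio scaling. Nop2, a ribosomal RNA methyltransferase, had 34.01, 23.7 and 23.7 FPKM in LH-NS and 12.7, 13.5 and 12.5 FPKM in PDGF-NS and fell, and Rrp12, a processing factor, fell by 1.16.

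Some genes of amino acid supply fell. Of 38 tested ATF4 targets and tRNA synthetases 7 fell and 2 rose (median −0.19, −0.32 scaled), or 11 fell after median ratio scaling and 4 without LH-NS library 1, and 4 rose without PDGF-NS library 1. Slc7a1, a transporter of arginine and lysine, had 43.8, 27.98 and 33.8 FPKM in LH-NS and 6.32, 9.26 and 7.43 FPKM in PDGF-NS, a change of −2.05 ± 0.19 (adjusted p = 4.1e-05). Chac1, which breaks down glutathione, fell by 1.26. DDIT3, the stress factor CHOP, rose from 61.8 to 163 FPKM (1.39). Of 175 tested solute carriers 42 rose and 22 fell, near the background, or 31 and 31 after median ratio scaling, and without PDGF-NS library 3 the number that rose was 26. Slc16a9, a member of the monocarboxylate transporter family, had 0.0916, 0.142 and 0.117 FPKM in LH-NS and 8.40, 14.3 and 7.85 FPKM in PDGF-NS, a change of 3.28 ± 0.23 (adjusted p = 1.2e-05). Slc44a3, a choline-like transporter, had 0.880, 0.844 and 0.697 FPKM in LH-NS and 23.4, 11.001 and 15.8 FPKM in PDGF-NS (3.24). Of 27 genes of ER chaperones and the unfolded protein response 5 rose and 3 fell, near the share of all genes. The number that rose was 2 without PDGF-NS library 2 and 0 without PDGF-NS library 3. The number that fell was 1 without LH-NS library 3 or PDGF-NS library 1 or 3. Creb3l1, an ER-bound factor that drives secretion of collagen, fell by 1.12. Of 17 collagen processing enzymes 4 fell and 1 rose. Serpinh1, the collagen chaperone HSP47, fell by 0.88 and P4ha3, a prolyl hydroxylase, by 1.80.

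**Figure D4:**
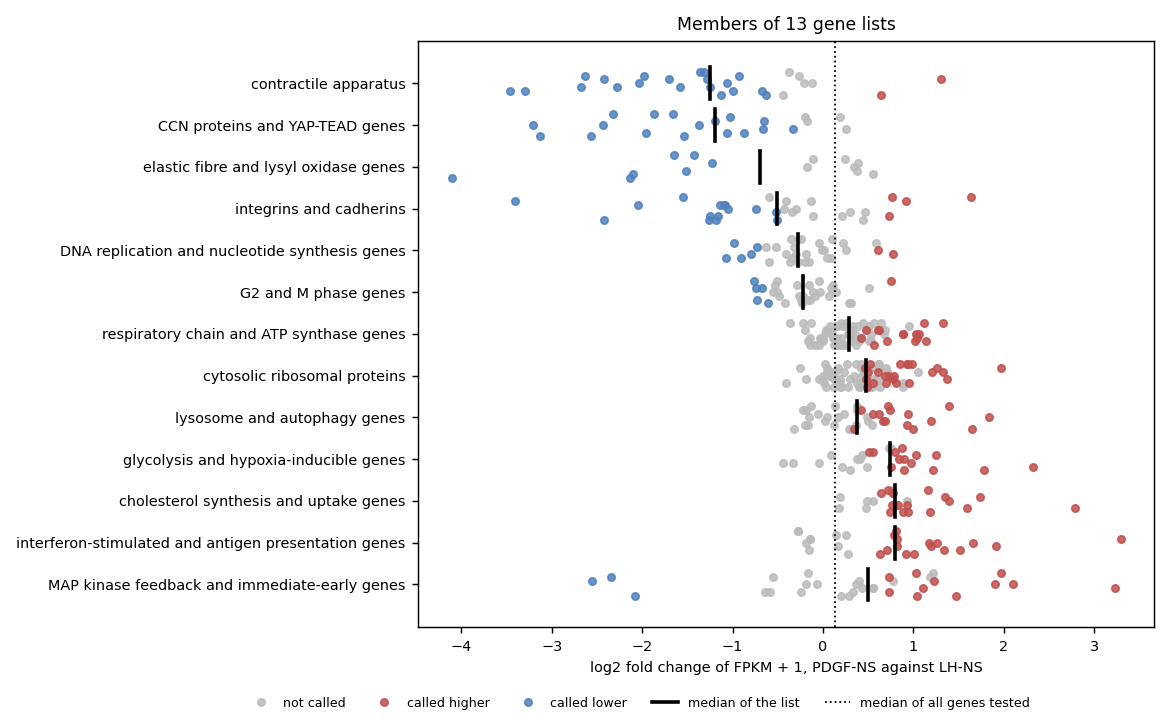
Each point is a tested gene, placed by its log2 fold change of FPKM + 1 in PDGF-NS (IGF-1, 24 h, by record) against LH-NS, for 13 of the lists. Black bars mark the list medians, from −1.25 for the contractile genes to 0.80 for the interferon-stimulated genes, and the dotted line the median of all genes, 0.13. Red and blue points passed the test, and grey points did not.

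Lysosome and stress genes rose in part. Of 37 tested lysosome and autophagy genes 15 rose and 0 fell (median 0.38, 0.24 scaled), and 15 were higher and 0 lower than in IGF-NS. Ctsb, cathepsin B, had 397, 422 and 455 FPKM in LH-NS and 1517, 1207 and 1301 FPKM in PDGF-NS, a change of 1.65 ± 0.13 (adjusted p = 1.5e-05). Cd63, a tetraspanin of late endosomes, had 591, 463 and 483 FPKM in LH-NS and 954, 1127 and 972 FPKM in PDGF-NS (0.99), Ctsk, cathepsin K, which digests collagen, rose by 1.40, and Mitf, a factor that drives lysosome genes, by 1.19. Lamp1, a major lysosome membrane protein, had 471, 438 and 385 FPKM in LH-NS and 521, 401 and 400.4 FPKM in PDGF-NS and did not pass (adjusted p = 0.92). Of 36 tested genes of oxidative stress, iron and metals 19 rose and 3 fell (median 0.52, 0.39 scaled), or 1 fell without LH-NS library 3 or PDGF-NS library 2 or 3. Hmox1, haem oxygenase 1, had 51.3, 50.3 and 38.5 FPKM in LH-NS and 213, 224 and 291 FPKM in PDGF-NS, a change of 2.35 ± 0.17 (adjusted p = 1.2e-05). Nqo1, a quinone reductase, had 57.7, 60.3 and 59.7 FPKM in LH-NS and 129.6, 152 and 171 FPKM in PDGF-NS (1.32). The metallothioneins Mt1a and Mt2A, which bind zinc and copper, had 1.98 and 1.99, with Mt2A at 3964, 1355 and 2683 FPKM in PDGF-NS. Tfrc, the transferrin receptor that takes up iron, fell by 1.14. Cryab, a small heat shock protein of muscle, had 278, 344 and 514 FPKM in LH-NS and 112, 84.4 and 74.04 FPKM in PDGF-NS (−2.03), while its relatives Hspb7 and Hspb8 rose by 1.46 and 1.34. Of 16 tested heat shock proteins 6 rose and 2 fell, or 3 rose without PDGF-NS library 3. Of 34 proteasome subunits 7 rose and 0 fell, or 2 rose without PDGF-NS library 3. The rises among the proteasome subunits lay near the share of all genes. Of 22 apoptosis regulators 9 rose and 0 fell, or 6 and 3 after median ratio scaling. Bid, which promotes cell death, rose by 1.16. Bcl2l1, which holds it back, stood at −0.05 on the log2 scale (adjusted p = 0.88, symbol on more than 1 row).

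Inflammatory genes rose for a subset of ligands. Of 32 tested chemokines, cytokines, complement and adhesion genes 16 rose, 2 fell and 14 did not pass (median 0.45, 0.32 scaled), or 13 rose and 4 fell after median ratio scaling. Ccl7, a chemokine for monocytes, had 2.21, 6.10 and 4.45 FPKM in LH-NS and 25.1, 66.5 and 70.6 FPKM in PDGF-NS, a change of 3.33 ± 0.39 (adjusted p = 0.00017). Ccl2, its neighbour in function, had 6.12, 24.9 and 19.4 FPKM in LH-NS and 41.2, 45.9 and 85.5 FPKM in PDGF-NS (1.83). Il6, interleukin 6, had 0.424, 1.04 and 1.59 FPKM in LH-NS and 4.41, 7.82 and 16.8 FPKM in PDGF-NS (2.27). The libraries of a set spread by more than 1.5 times here, though the sets did not overlap. Il6, at a mean of 0.267 FPKM in IGF-NS, passed the filter only through the PDGF-NS libraries. Osmr, the oncostatin M receptor, had 5.69, 10.3 and 11.4 FPKM in LH-NS and 35.7, 40.9 and 41.6 FPKM in PDGF-NS (2.04), and Socs3, which such cytokines induce and which holds them back, rose by 2.28. Nfkbia, a target of NF-kB, stood at 0.01 on the log2 scale (adjusted p = 0.96). The marker sum of leukocytes was 18.9 to 29.9 FPKM in LH-NS and 44.8 to 92.1 FPKM in PDGF-NS. Cd14 made up most of it and rose. Cd68 had 0.246, 0.378 and 0 FPKM in LH-NS and 9.37, 1.39 and 2.13 FPKM in PDGF-NS, and it passed the filter only through the PDGF-NS libraries, above all library 1. Fcer1g did not pass. Of the other members Adgre1 was not matched in the table and 8 were below the filter, Ptprc, Aif1 and Tyrobp at 0. The part of other cells in these rises was not tested beyond these markers.

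Interferon-stimulated and antigen presentation genes rose in 16 of 26 tested members of 35, and 0 fell (median 0.80, 0.67 scaled). Ifitm3, a membrane protein that blocks virus entry, had 1028, 1479 and 1502 FPKM in LH-NS and 3135, 3187 and 3186 FPKM in PDGF-NS, a change of 1.27 ± 0.16 (adjusted p = 0.00028). Ifitm1 was listed at 0, 0.962 and 0 FPKM in LH-NS and 15.1, 9.37 and 10.1 FPKM in PDGF-NS. With a mean of 0.101 FPKM in IGF-NS, it passed the filter only through the PDGF-NS libraries. The subunits of the immunoproteasome Psmb8 and Psmb9 rose by 1.52 and 1.66, and Tap1, the peptide transporter, by 1.20. B2m, the light chain of MHC class I, had 476, 693 and 763 FPKM in LH-NS and 656, 512 and 559 FPKM in PDGF-NS and did not pass (adjusted p = 0.65). Of 7 tested galectins and lectins 4 rose: Lgals3, galectin 3, had 42.3, 43.7 and 56.2 FPKM in LH-NS and 394, 232 and 349 FPKM in PDGF-NS, a change of 2.73 ± 0.20 (adjusted p = 1.3e-05), and Lgals1 rose from 4753 to 8225 FPKM.

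Hsd11b1, which regenerates active glucocorticoid, had 14.3, 20.8 and 18.9 FPKM in LH-NS and 821, 827 and 908 FPKM in PDGF-NS, a change of 5.50 ± 0.19 (adjusted p = 4.3e-07). Of the 8 tested genes of its list 3 rose and 1 fell. Among glucocorticoid targets Fkbp5 had 4.60, 4.88 and 2.63 FPKM in LH-NS and 9.77, 11.7 and 12.5 FPKM in PDGF-NS (1.32) and Tsc22d3 rose by 0.81, whereas Klf9 fell by 0.62 and Per1 stood at 0.01 on the log2 scale (adjusted p = 0.99). The targets thus did not share one direction. Of 16 tested clock genes 6 rose and 2 fell, with a median of 0.11 that turned to −0.01 after median ratio scaling. Dbp, an output factor of the clock, had 18.7, 19.3 and 9.55 FPKM in LH-NS and 74.8, 50.1 and 67.7 FPKM in PDGF-NS (1.99), Bhlhe40 rose by 1.62 and Nr1d1, a clock repressor, by 1.05. Of 9 tested genes of retinoid, alcohol and steroid metabolism 4 rose and 1 fell. Adh1, an alcohol dehydrogenase that also oxidizes retinol, had 8.03, 9.07 and 4.85 FPKM in LH-NS and 93.3, 60.3 and 63.3 FPKM in PDGF-NS, a change of 3.15 ± 0.29 (adjusted p = 4.5e-05).

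Developmental transcription factors changed without one direction: of 45 tested members of 96, 9 rose, 9 fell and 27 did not pass, or 8 and 14 after median ratio scaling. The rises lay near the share of all genes, and without PDGF-NS library 3 the number that rose was 5. Prrx1, a factor of mesenchyme, had 92.2, 98.2 and 90.9 FPKM in LH-NS and 288, 353 and 385 FPKM in PDGF-NS, a change of 1.85 ± 0.16 (adjusted p = 2.9e-05), and Snai2, a repressor of epithelial genes, rose by 1.41. Twist2, also a factor of mesenchyme, had 60.7, 58.1 and 59.03 FPKM in LH-NS and 21.3, 17.4 and 17.7 FPKM in PDGF-NS (−1.61), and Osr1 and Gata6, factors of embryonic mesoderm, fell by 1.45 and 0.99. St8sia2, which builds polysialic acid, had 64.7, 57.9 and 105 FPKM in LH-NS and 3.31, 0.638 and 0.734 FPKM in PDGF-NS, a change of −5.01 ± 0.35 (adjusted p = 1e-05), and 2 of the 5 tested genes of its list fell. Of fibroblast markers 5 of 8 tested rose and 1 fell, and their sum was 2822 to 4077 FPKM in LH-NS and 2832 to 3457 FPKM in PDGF-NS. Dpt, dermatopontin, had 0.529, 0.389 and 0.332 FPKM in LH-NS and 7.02, 15.7 and 19.4 FPKM in PDGF-NS (3.31), and Tcf21 was listed at 0.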

How the data were processed

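RNA-seq libraries were read from 1 table of FPKM values as the authors deposited it. The submitters' processing notes name GSNAP and Cufflinks. Versions, genome build and annotation are not given in the sources analysed. FPKM already correct for depth and transcript length, so no counts could be tested. The table had 26407 rows, of which 2 duplicated all-zero rows were removed. The value 999999999, in 10 cells, was read as missing, and the 4 genes with such a cell were left out. Genes that averaged 1 FPKM or more were kept, 11376 in all. Of these, 768 have no symbol. In 31 genes with a median above 5 FPKM a library was listed at 0.

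Values were tested as log2(FPKM + 1) with limma 3.58.1 (R 4.3.3) with a variance trend, in one model of the 9 libraries with the group as its only term. Benjamini-Hochberg adjustment ran over all genes tested, and a gene was called at an adjusted p below 0.05. Each ± beside a log2 fold change is its standard error. Every adjusted p is from this limma model. The procedure was tested on simulated data. Nothing was normalized further. The alternatives were other pseudocounts, filters and scalings, no variance trend, only the 6 libraries compared, a replicate block and each library of the compared sets left out in turn. Named genes came from the largest called movers with no overlap, the anchor genes of each list and its 4 or fewer largest called movers that reached 5 FPKM in either set, and the most abundant genes, and the text prints part of them. Members, lists and tests were chosen with earlier results of these data known. Promoters were taken from RefSeq (GRCr8) by symbol. Figures were drawn with matplotlib 3.10.9 from Python 3.11.15.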

Additional observations from a re-analysis of the deposited data

How the results depend on the processing

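The number of genes that fell in PDGF-NS against LH-NS was 1752 after quantile normalization, and the number lower than in IGF-NS was 1480 after rescaling to one common sum. The other pseudocounts, filters, scalings and the 6-library and untrended models left all 4 counts within 1.5 times. Leaving out 1 library of the 2 sets compared at a time gave 1535 to 2115 genes that rose and 839 to 1023 that fell against LH-NS, with 1530 of the 1535 shared, and 548 to 899 higher and 466 to 694 lower than in IGF-NS. Leaving out a library of the set not compared, which enters only through the shared spread, gave 2171 to 2482 higher and 1071 to 1257 lower against LH-NS, and 827 to 1096 higher and 747 to 1047 lower against IGF-NS. The lowest counts were without PDGF-NS library 3. Against IGF-NS the number lower was also 551 without IGF-NS library 1, 566 without PDGF-NS library 1 and 571 without PDGF-NS library 2. Fits without that library had 2 libraries in a set, and the cause of the lower counts beyond fewer samples was not tested.

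Deviations of same-numbered LH-NS and PDGF-NS libraries correlated at −0.115, −0.187 and −0.061, so the pairing by number is not borne out, and no library correlated best with its own number. With the replicate block 2149 genes rose and 1072 fell against LH-NS, and 822 were higher and 708 lower than in IGF-NS.

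Of 235 genes named in the report and followed through the alternatives 215 were called. Genes below the filter, the markers Erg, Upk3b and Krt8 and most genes in the closing paragraphs are not among the 235. None of these calls changed direction, and under the scalings, the replicate block or the loss of a library only those of Hes1 and Cacna1c ended. Col1a1 was called lower after quantile normalization (adjusted p = 0.033 in limma). Lgals1 did not pass with no filter on low values (adjusted p = 0.063 in limma), and its other calls held. Of 54 list counts with at least 5 calls, 16 moved by over 1.5 times without PDGF-NS library 3. Read depth is unknown, which limits what can be said of genes near 1 FPKM.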

Other observations

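The genes in this paragraph were chosen after their values were seen. They stand on none of the lists, and no count over a class of genes was made. Tnnc1, the calcium-binding troponin of heart and slow muscle, had 12.4, 22.6 and 32.5 FPKM in LH-NS and 4.97, 3.84 and 2.99 FPKM in PDGF-NS and changed by −2.17 ± 0.31 (adjusted p = 0.00057) on the log2 scale. Atp2a1, the calcium pump of fast muscle, fell by 1.93, and Bves and Popdc2, membrane proteins of the Popeye family, fell by 2.09 and 1.87. Sulf1, which trims heparan sulfate, had 129, 165 and 165 FPKM in LH-NS and 25.1, 23.7 and 19.9 FPKM in PDGF-NS (−2.69), and the secreted proteins Npnt, Scube3 and Matn3 fell by 2.79, 3.00 and 3.32. The neurotrophin receptors Ntrk2 and Ntrk3 fell by 2.18 and 1.75.

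The genes that follow were also chosen after their values were seen. Socs2 and Cish, feedback inhibitors of STAT5 signalling, had 10.8, 89.6 and 58.4 FPKM and 3.92, 16.5 and 14.5 FPKM in PDGF-NS, from means of 3.14 and 1.25 FPKM in LH-NS. Both were lowest in PDGF-NS library 1. Bcl3 and Nfkbiz, nuclear partners of NF-kB, rose by 3.09 and 2.13, and Lbp, which binds bacterial lipopolysaccharide, by 3.09. The membrane peptidase Enpep, which cleaves angiotensin II, had 4.30, 6.71 and 4.53 FPKM in LH-NS and 43.98, 47.1 and 46.2 FPKM in PDGF-NS and rose by 2.94 ± 0.17 (adjusted p = 4.2e-06). Anpep, which acts on the next peptide, had 8.60, 6.49 and 6.66 FPKM in LH-NS and 138, 234 and 189 FPKM in PDGF-NS and rose by 4.48 ± 0.22 (adjusted p = 1.9e-06).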
